A study of Mus musculus with 15 samples.

Results

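The RNA levels of 9 transcription factors of the myeloid lineage were followed in MH-S cells: Spi1, Cebpa, Cebpb, Cebpd, Maf, Klf2, Klf4, Klf6 and Mitf. The members were taken by gene symbol, and all 9 were found among the 78317 gene identifiers of the count table and among the 16654 genes that passed the filter on low counts. MH-S is a mouse alveolar macrophage line transformed with SV40, and all 15 libraries came from the same cell passage. The 5 groups held 3 wells each and were harvested after 24 h: medium only (M0), LPS at 1 µg/mL with IFN-γ at 20 ng/mL (M1), IL-4 at 20 ng/mL (M2), CaP microrods at 0.1 mg/mL and SiO2 microrods at 0.1 mg/mL. Each well of a microrod group received its own particle batch. The spread within a group therefore covers wells and particle batches, not cell passages, and p-values measure this spread only.

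PU.1, the product of Spi1, is an ETS factor that macrophages need to form and that keeps their enhancers open. The C/EBP proteins are leucine zipper factors that work beside PU.1: C/EBPα acts in myeloid differentiation, whereas C/EBPβ and C/EBPδ are known for acute-phase and inflammatory genes. The KLF proteins bind GC-rich and CACCC elements through zinc fingers, c-MAF is tied to resident and IL-10-producing macrophages, and MITF belongs to the MiT/TFE group that acts on lysosomal and osteoclast genes.

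Total counts ranged from 8459643 to 68750050 per library, and mitochondrial transcripts took 0.888% to 2.18% of them. On the second principal component of the 500 most variable genes, which held 24.1% of their variance, 3 libraries stood apart: M0 replicate 3, M2 replicate 2 and SiO2 replicate 2. Without these 3 libraries the same number of members was called in each of the 6 main comparisons. Each of the 3 had the smallest total count of its group (8459643, 8594947 and 12646926), whereas M1 replicate 3 with 10117846 counts did not stand apart. The part of depth in this separation was not tested. General macrophage genes were abundant in M0, with Cd68 at 979 CPM (counts relative to the scaled total of the library), Lyz2 at 1847 CPM and Csf1r at 165 CPM. The alveolar markers Siglecf, Car4 and Chil3 were at or near 0, their mean not exceeding 0.275 CPM in any group, whereas Itgax had a mean of 1.62 to 4.27 CPM. Marco and Fabp4 were low in M0 (0.147 and 0.291 CPM) and called higher in M1 (2.18 and 1.41 CPM, adjusted p = 0.00107 and 0.00154 in edgeR's quasi-likelihood test). The summed fibroblast, epithelial and mast cell markers stayed at or below 0.232 CPM in each library. Of the markers of other cell types, Lck, Cd79b and the dendritic cell marker Ccr7 were called higher in M1 than in M0. Their means were 14.1 against 7.44 CPM, 11.9 against 0.592 CPM and 2.13 against 0 CPM. Lck was the only 1 of 5 T cell markers above 3 counts in any library. Of the B cell and dendritic cell markers, 2 of 5 and 4 of 5 were. The part of other cells in the M1 results was not tested. In bulk libraries, fewer cells of a type and less RNA per cell cannot be told apart.

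Promoter sequences of 4 members are shown because these genes form 2 of the 3 pairs of relatives whose counts are set against each other below, Klf4 with Klf2 and Cebpb with Cebpa. They are the 250 bases upstream of the annotated start in RefSeq (GRCm38.p6, another build than the one used for counting), read 5′ to 3′ on the gene's strand. A promoter was found for 6 of the 9 members, and those of Spi1, Cebpd and Maf were not analysed here. Capitals mark matches to 3 short motifs on either strand, with overlapping matches merged. These are the GC box, spelled GGGCGG, the KLF-type CACCC box, spelled as its name, and the core of the cAMP response element (CRE core), spelled TGACG. The windows lie at chr4:55532476-55532725 (minus strand), chr8:72318812-72319061 (plus strand), chr2:167688665-167688914 (plus strand) and chr7:35119043-35119292 (plus strand).
Klf4: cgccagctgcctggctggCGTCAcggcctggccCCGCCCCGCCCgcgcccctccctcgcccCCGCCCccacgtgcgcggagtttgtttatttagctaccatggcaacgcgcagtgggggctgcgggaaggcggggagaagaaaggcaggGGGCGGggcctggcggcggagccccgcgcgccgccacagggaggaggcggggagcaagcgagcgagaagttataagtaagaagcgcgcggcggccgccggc
Klf2: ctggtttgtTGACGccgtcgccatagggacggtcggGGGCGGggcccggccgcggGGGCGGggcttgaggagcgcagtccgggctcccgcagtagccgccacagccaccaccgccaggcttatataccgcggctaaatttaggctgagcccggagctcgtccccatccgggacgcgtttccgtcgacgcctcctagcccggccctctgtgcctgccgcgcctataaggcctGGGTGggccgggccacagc
Cebpb: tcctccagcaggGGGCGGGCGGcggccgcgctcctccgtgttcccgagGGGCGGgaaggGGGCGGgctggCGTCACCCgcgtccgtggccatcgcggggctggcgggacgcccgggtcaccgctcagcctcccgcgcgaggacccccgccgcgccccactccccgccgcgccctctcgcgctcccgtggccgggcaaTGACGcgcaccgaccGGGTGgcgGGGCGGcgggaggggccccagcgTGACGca
Cebpa: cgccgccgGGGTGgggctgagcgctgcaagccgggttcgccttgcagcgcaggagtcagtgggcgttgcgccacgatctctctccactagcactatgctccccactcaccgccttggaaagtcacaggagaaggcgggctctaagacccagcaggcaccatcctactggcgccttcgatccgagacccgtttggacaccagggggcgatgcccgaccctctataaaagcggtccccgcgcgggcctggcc

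The Klf4 window held 4 GC boxes and 1 CRE core, and that of Klf2 held 2 GC boxes, 1 CRE core and 1 CACCC box. In the Cebpb window 5 GC boxes, 3 CRE cores and 2 CACCC boxes were found. The Cebpa window held no GC box and no CRE core, 1 CACCC box and 1 TATA box (TATAAA). Of all 32851 promoters of the same length in the table, 32.7% held a GC box, 17.8% a CRE core, 52.0% a CACCC box and 12.4% a TATA box. The GC content of the 4 windows was 74.0% (Klf4), 71.2% (Klf2), 81.6% (Cebpb) and 66.4% (Cebpa), beside a median of 52.4% over the table. Matches are letters in a window and not measured binding sites.

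Levels per length of exon separated the members into abundant and scarce ones. Over the 15 libraries, Spi1 had a mean of 44.5 CPM per kb and Klf6 of 35.1 CPM per kb. Klf4 (2.84), Cebpa (2.40), Cebpb (2.36), Mitf (2.22), Klf2 (1.03) and Cebpd (0.919 CPM per kb) followed at least an order of magnitude lower. Maf was the scarcest with 0.0831 CPM per kb and had 3 to 68 counts per library, so its values are the least precise of the 9. The panels of the 9 genes by library show how differently the groups were ordered from gene to gene.

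**Figure D1:**
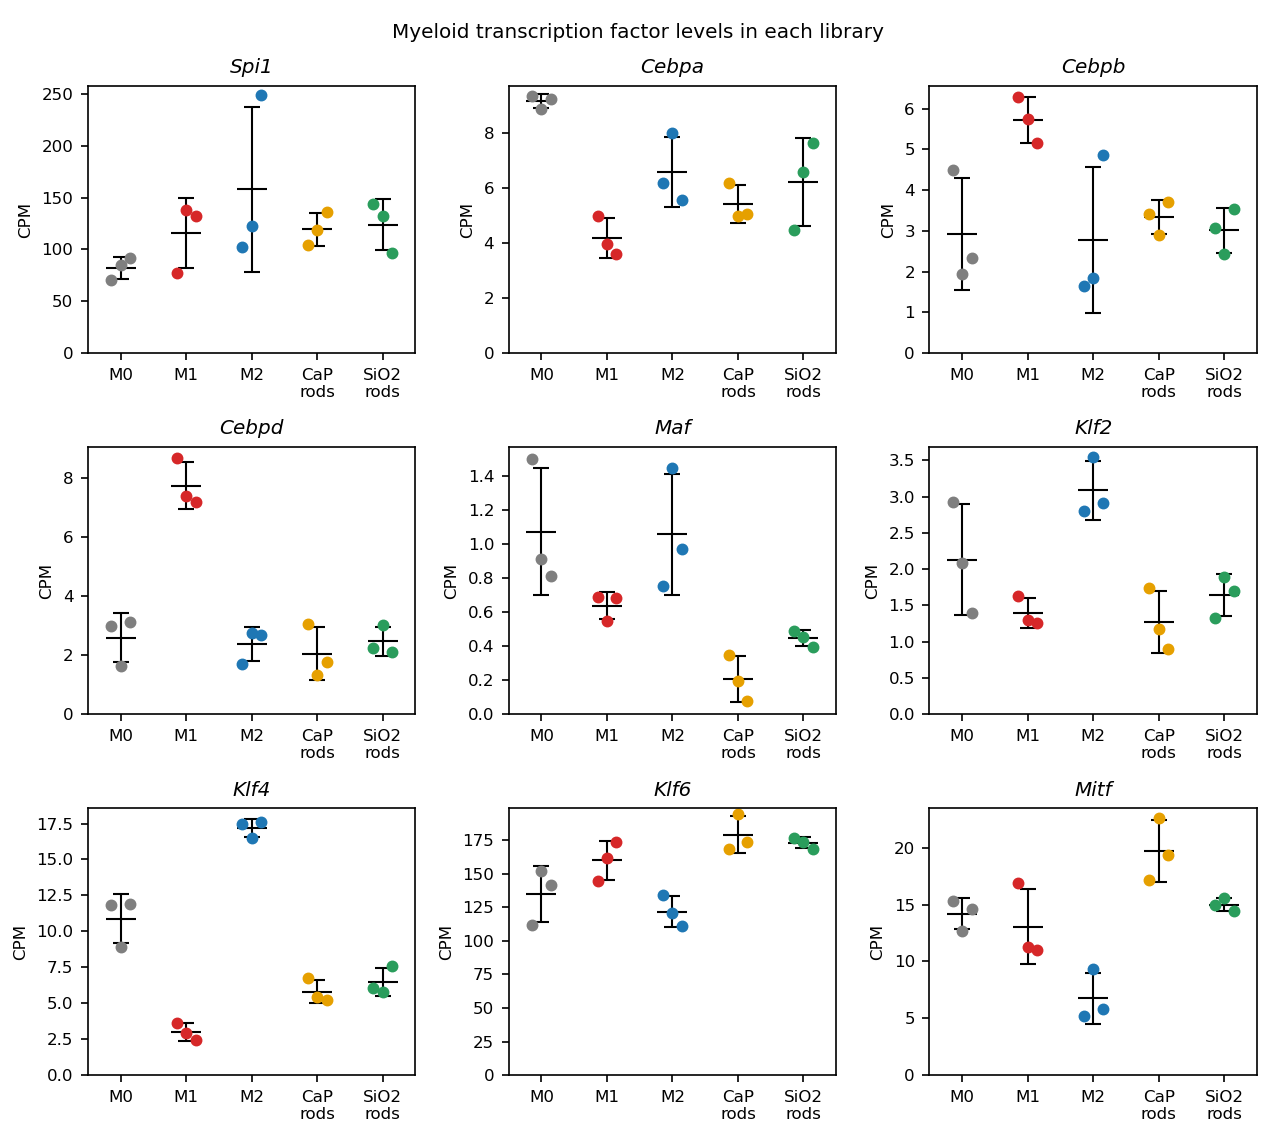
Level of each of the 9 transcription factors in CPM (y axis, starting at 0) in the 5 groups (x axis); each point is 1 library and bars give the mean ± SD of 3 libraries. Klf4 spans 2.43 CPM in the lowest M1 library to 17.6 CPM in the highest M2 library, Cebpd stands out in M1, and Mitf is lowest in M2.

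A member was called changed at an adjusted p below 0.05 (edgeR's quasi-likelihood test, Benjamini-Hochberg over all genes tested) together with an absolute log2 fold change above 0.5. In M1 against M0, 3 of the 9 members were called, Cebpd higher and Cebpa and Klf4 lower, beside 14.1% of all genes tested. In M2 against M0, 1 member was called (Mitf, lower), beside 4.13% of genes. CaP microrods gave 1 call against M0 (Maf, lower), where 0.654% of genes were called, and SiO2 microrods gave 0, where 0.264% were called. Between the 2 microrod types 0 members were called, in a comparison that called 0.0180% of genes. DESeq2 called 0 members for SiO2 against M0 and 0 for CaP against SiO2. At an unadjusted p below 0.05 in edgeR's test there were 4 members for SiO2 against M0 and 0 for CaP against SiO2. The other counts at this level were 4 in M1, 4 in M2 and 5 with CaP against M0, and 7 for M1 against M2. The share of all genes at this level was not determined, so these counts show no excess of members. M1 and M2 differed in 4 members (16.1% of genes were called), CaP differed from M1 in 2 (12.7%) and from M2 in 5 (4.46%), and SiO2 differed from M1 in 2 (10.5%) and from M2 in 2 (3.65%). Since the 4 comparisons with M0 share its libraries, their values are given side by side and not as independent results.

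**Figure D2:**
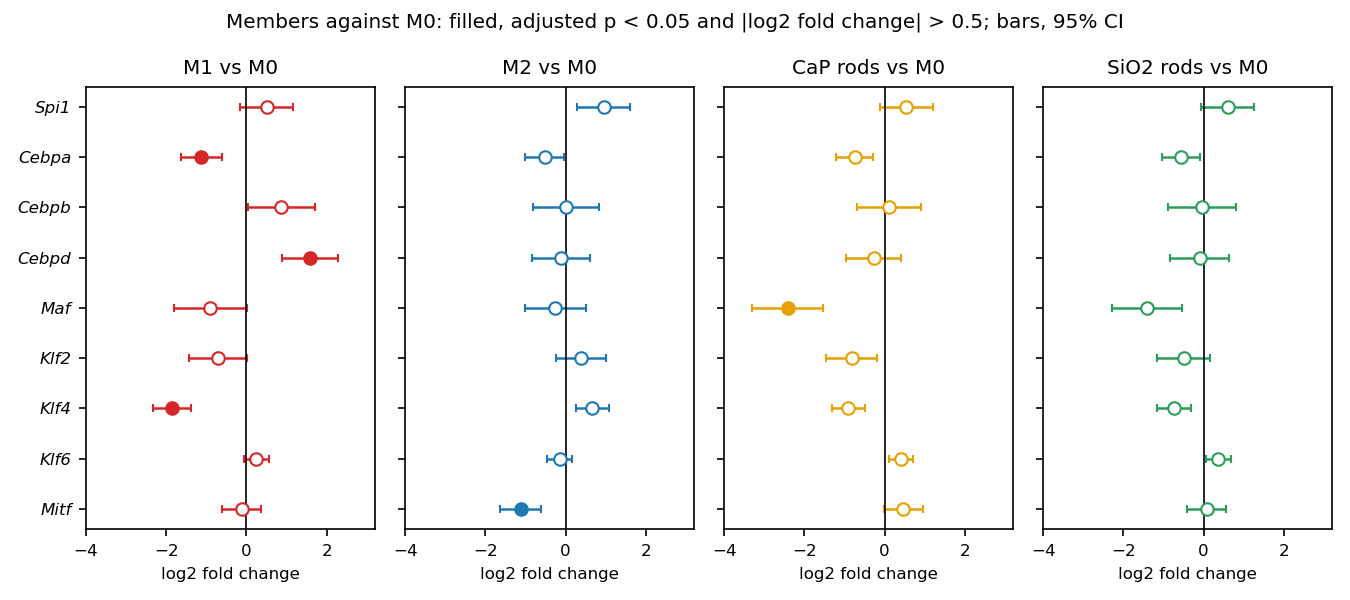
Log2 fold change of each member against M0 (x axis) for M1, M2, CaP and SiO2 microrods, with 95% confidence intervals; filled points pass both thresholds. Cebpa (-1.13), Cebpd (1.58) and Klf4 (-1.85) are filled in M1, Mitf (-1.12) in M2 and Maf (-2.41) in CaP, and none is filled in SiO2.

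Spi1 was present at 70.3, 84.6 and 91.4 CPM in the M0 libraries. The other groups had 76.9, 138 and 132 CPM in M1, 102, 123 and 249 CPM in M2, 104, 119 and 136 CPM with CaP and 144, 132 and 96.4 CPM with SiO2. Every library of M2 and of both microrod groups was thus above every M0 library, but the M2 libraries were widely spread and the highest of them was also the one with the largest total count. The log2 fold change against M0 was 0.95 ± 0.31 (SE, adjusted p = 0.114) in M2, 0.50 ± 0.31 (0.323) in M1, 0.54 ± 0.31 (0.409) with CaP and 0.60 ± 0.31 (0.674) with SiO2, so no group passed the threshold. Of 14 alternative settings for M2, the one without a filter on low counts gave a call (adjusted p = 0.00400). No pair of neighbours in the order M2, SiO2, CaP, M1, M0 differed by the test either.

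The 3 C/EBP members did not move as one. Cebpa was lower in M1, Cebpd was higher in M1, and Cebpb passed in none of the 6 comparisons. In M0, Cebpa was at 9.38, 8.91 and 9.27 CPM, a narrow range (9.18 ± 0.244, SD, n = 3). The M1 libraries had 4.99, 3.97 and 3.60 CPM, all below the lowest M0 library and all below the lowest M2 library of 5.57 CPM. The log2 fold change of M1 against M0 was -1.13 ± 0.24 (SE), a 2.19-fold lower level with an adjusted p of 0.00573 in edgeR's quasi-likelihood test, and the call held in 14 of 14 alternative settings.

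Cebpa was also below all M0 libraries in the other 3 groups without passing the test. M2 had 6.21, 8.03 and 5.57 CPM, CaP 6.21, 5.00 and 5.06 CPM and SiO2 4.50, 6.58 and 7.65 CPM. The log2 fold changes against M0 were -0.52 ± 0.23 (SE) in M2, -0.75 ± 0.22 with CaP and -0.56 ± 0.22 with SiO2, with adjusted p-values of 0.257, 0.138 and 0.519. M0 was thus the highest group and M1 the lowest, with M2, SiO2 and CaP between them and no neighbouring pair called. A gene on the opposite strand, Gm45091, shares 51 exonic bases with Cebpa and was at or below 0.429 CPM in all libraries.

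Cebpd stood at 3.00, 1.63 and 3.13 CPM in M0 and at 8.68, 7.38 and 7.19 CPM in M1. The lowest M1 library was far above the highest library of any other group, and M2 (1.71, 2.76 and 2.68 CPM), CaP (3.04, 1.31 and 1.77 CPM) and SiO2 (2.25, 3.03 and 2.10 CPM) overlapped with M0. The log2 fold change of M1 against M0 was 1.58 ± 0.32 (SE), a 2.99-fold higher level (adjusted p = 0.00450), called in 14 of 14 alternative settings. Cebpd was likewise 3.22-fold higher in M1 than in M2 (adjusted p = 0.00236). Against the microrod groups, the Cebpd level in M1 was 3.61-fold (CaP, adjusted p = 0.00107) and 3.21-fold (SiO2, 0.00335) higher, so M1 was set apart from all 4 other groups.

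The libraries keep no strand, and 562 exonic bases of Cebpd overlap with Spidr, a DNA repair scaffold gene on the opposite strand. Spidr lay at 11.3 to 15.5 CPM in M0 and at 21.6 to 23.9 CPM in M1, with a log2 fold change of 0.84 (adjusted p = 0.223). Reads of the shared bases cannot be told apart, and the part of Spidr in the Cebpd values was not tested.

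Cebpb gave 4.50, 1.95 and 2.32 CPM in M0 and 6.28, 5.74 and 5.15 CPM in M1. The M1 libraries all lay above those of M0, but with the spread within M0 the log2 fold change of 0.87 ± 0.39 (SE) had an adjusted p of 0.161 and was not called in any of 14 alternative settings. M2 was divided, with 1.64 and 1.84 CPM in replicates 1 and 2 and 4.85 CPM in replicate 3. Without this last library, Cebpb was called higher in M1 than in M2 (log2 fold change 1.73, adjusted p = 0.0112), whereas with all libraries the value was 0.85 (0.155). CaP (3.42, 2.89 and 3.71 CPM) and SiO2 (3.08, 2.42 and 3.53 CPM) fell within the range of M0. Tmem189, on the opposite strand, shares 312 exonic bases with Cebpb and had 24.9 CPM in M0 and 18.7 CPM in M1, and its part in the Cebpb values was not tested.

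Because a ratio of 2 genes within a library does not depend on how libraries are scaled, Cebpb was also set against Cebpa. In M0 the libraries held 0.481, 0.222 and 0.255 counts of Cebpb per count of Cebpa, in M1 1.26, 1.44 and 1.43. M1 was the only group in which Cebpb counts exceeded those of Cebpa, and it did so in all 3 libraries. Counts are not corrected for length, and Cebpa has 2.64 kb of exon beside 1.50 kb for Cebpb. Per kb, the mean of Cebpb also exceeded that of Cebpa with CaP (2.22 against 2.06 CPM per kb), beside 3.81 against 1.59 in M1. It stayed below that of Cebpa in M0, M2 and SiO2. The log2 ratio was -1.73 ± 0.60 (SD) in M0 and 0.46 ± 0.11 in M1, a difference of 2.19, with an exact permutation p of 0.10, the smallest that 3 against 3 libraries allow (0.36 after adjustment over 18 such tests). With CaP the log2 ratio was -0.69 ± 0.22, above all M0 libraries (difference 1.04, exact permutation p = 0.10), and with SiO2 it was -1.03 ± 0.45 (difference 0.71, exact permutation p = 0.30). The ratio of Cebpd to Cebpb had an exact p of 0.20 or more in each of the 6 comparisons.

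**Figure D3:**
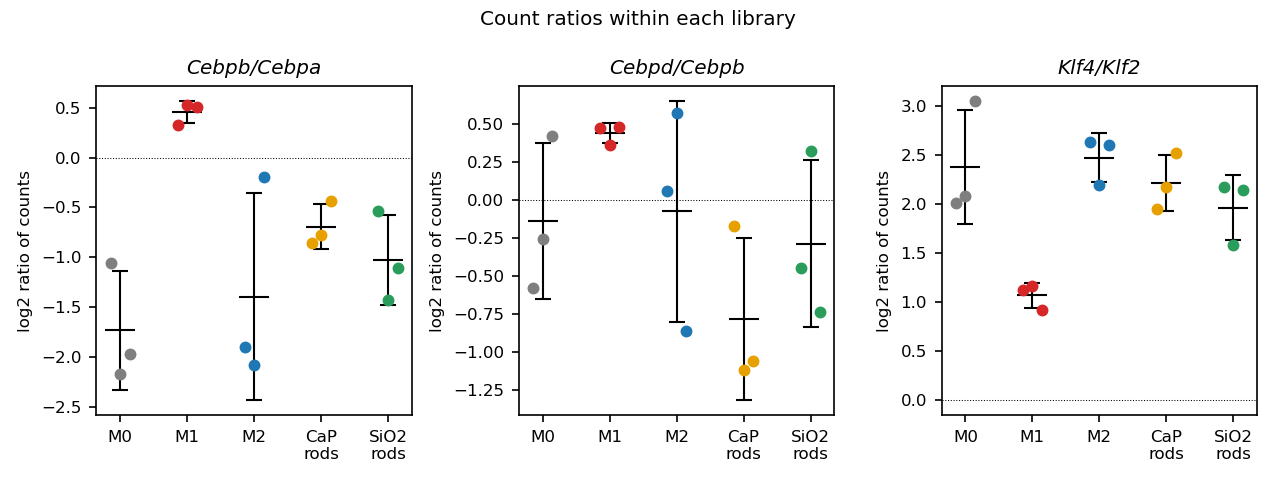
Log2 ratio of the counts of Cebpb to Cebpa, Cebpd to Cebpb and Klf4 to Klf2 within each library (y axis, 0.5 added to each count) in the 5 groups (x axis); points are libraries, bars the mean ± SD of 3 libraries and the dotted line equal counts. For Cebpb to Cebpa, the M1 libraries lie at 0.33 to 0.53 and the others at -0.20 or lower.

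Klf4, which in macrophages is known as a factor raised by IL-4, covered the widest range of the KLF members relative to its own level. It was at 11.8, 8.91 and 11.9 CPM in M0, 3.61, 2.94 and 2.43 CPM in M1 and 17.5, 16.5 and 17.6 CPM in M2. The 3 groups did not overlap, with M2 at the top and M1 at the bottom. M1 was 3.62-fold below M0 (log2 fold change -1.85 ± 0.22, SE, adjusted p = 6.58e-05) and 5.74-fold below M2 (-2.52 ± 0.22, adjusted p = 2.30e-06), both called in 14 of 14 alternative settings. M2 against M0 gave a log2 fold change of 0.67 (95% CI 0.25 to 1.08, adjusted p = 0.0720), which missed the threshold with edgeR and passed it with DESeq2 (adjusted p = 0.0342).

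With microrods, Klf4 lay between M0 and M1. The CaP libraries had 6.75, 5.46 and 5.21 CPM and the SiO2 libraries 6.02, 5.75 and 7.57 CPM, all below the lowest M0 library and above the highest M1 library. Against M0 the log2 fold change was -0.90 (95% CI -1.32 to -0.48, adjusted p = 0.0560) with CaP and -0.75 (-1.17 to -0.32, adjusted p = 0.235) with SiO2. The CaP value was called in 3 of 15 alternative settings, namely with DESeq2, without M0 replicate 2 and without CaP replicate 1, and the SiO2 value in 0 of 15. Against M1, Klf4 was called higher with CaP (0.96, adjusted p = 0.0103) and with SiO2 (1.11, adjusted p = 0.00487), and against M2 it was called lower with both (-1.56, adjusted p = 1.91e-04, and -1.41, adjusted p = 7.08e-04). Between the 2 rod types the difference was -0.15 with a 95% CI of -0.58 to 0.27.

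Klf2, a factor known for restraining inflammatory activation, was scarcer per kb and, like Klf4, had its highest mean in M2. It gave 2.92, 2.08 and 1.39 CPM in M0, 1.63, 1.30 and 1.26 CPM in M1 and 2.80, 3.55 and 2.91 CPM in M2. The M1 libraries lay below those of M2 without overlap, whereas M0 overlapped with M1. Klf2 was 2.15-fold lower in M1 than in M2 (log2 fold change -1.11 ± 0.33, SE, adjusted p = 0.0354), a call that was lost without a filter on low counts (adjusted p = 0.0600) and without any one of the libraries except M2 replicate 2 (adjusted p of 0.0571 to 0.120). CaP had 1.74, 1.18 and 0.897 CPM and SiO2 1.32, 1.89 and 1.70 CPM. Only CaP against M2 was called for these groups (log2 fold change -1.21, adjusted p = 0.0290), and against M0 the values were -0.82 (adjusted p = 0.222) with CaP and -0.50 (0.736) with SiO2.

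The ratio of Klf4 to Klf2 within a library was lowest in M1, with a mean log2 value of 1.07 ± 0.13 (SD) beside 2.38 ± 0.58 in M0 and 2.47 ± 0.25 in M2. Both differences from M1 (1.31 and 1.41 in size) had an exact permutation p of 0.10 and an adjusted value of 0.36. CaP (2.21 ± 0.29) and SiO2 (1.96 ± 0.33) overlapped with M0.

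Klf6, known for promoting inflammatory gene expression in macrophages, was the most abundant of the 3 KLF members per kb. It was at 112, 152 and 142 CPM in M0, 145, 162 and 174 CPM in M1 and 134, 121 and 111 CPM in M2. The CaP (169, 195 and 174 CPM) and SiO2 (177, 174 and 169 CPM) libraries were all above those of M0 and M2. The log2 fold changes against M0 were 0.41 (95% CI 0.10 to 0.72, adjusted p = 0.211) with CaP and 0.36 (0.05 to 0.67, adjusted p = 0.522) with SiO2, neither of which was called. Klf6 passed only with CaP against M2, at 0.56 ± 0.15 (SE, adjusted p = 0.0456), and with SiO2 against M2 it had 0.51 ± 0.15 (0.0842).

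Mitf was at 15.3, 12.7 and 14.6 CPM in M0 and at 5.19, 9.34 and 5.77 CPM in M2. The M2 libraries were below those of every other group, namely M1 (16.9, 11.3 and 11.0 CPM), CaP (17.2, 22.6 and 19.4 CPM) and SiO2 (14.4 to 15.6 CPM). Mitf was 2.18-fold lower in M2 than in M0 (log2 fold change -1.12 ± 0.24, SE, adjusted p = 0.0156). The call held in 10 of 14 alternative settings and was lost without M0 replicate 1, M2 replicate 1 or M2 replicate 3 (adjusted p of 0.0670 to 0.0965) and with only the 6 libraries compared (0.227). It was also called 2.01-fold lower in M2 than in M1 (adjusted p = 0.0109), 3.02-fold lower than with CaP (8.62e-04) and 2.30-fold lower than with SiO2 (0.00918). The M1 call was lost without M1 replicate 1, M2 replicate 1 or M2 replicate 3 (adjusted p of 0.0520 to 0.0649) and with only the 6 libraries compared (0.138).

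With CaP all 3 Mitf libraries were above all M0 libraries, at a log2 fold change of 0.47 (95% CI -0.01 to 0.95, adjusted p = 0.326), and SiO2 overlapped with M0 (0.08, 95% CI -0.41 to 0.56). CaP exceeded SiO2 in every library, with a difference of 0.39 and a 95% CI of -0.08 to 0.87 that was not called. Gene counts do not tell the transcripts of the several Mitf start sites apart, of which the promoter table lists 3.

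Maf had the lowest counts of the 9, and its microrod values rest on few reads. In M0 it had 57, 14 and 7 counts (1.50, 0.911 and 0.811 CPM), with CaP 17, 3 and 3 counts (0.349, 0.197 and 0.0748 CPM) and with SiO2 10, 6 and 10 counts (0.489, 0.454 and 0.396 CPM). Both microrod groups were below all M0 libraries, and CaP was below SiO2 without overlap. The level with CaP was 5.32-fold below M0 (log2 fold change -2.41 ± 0.41, SE, adjusted p = 0.0171 in edgeR's quasi-likelihood test). This call held in 8 of 14 settings: it was lost without M0 replicate 1, CaP replicate 2 or CaP replicate 3 (adjusted p of 0.0544 to 0.273), with the legacy quasi-likelihood (0.0513), with the 9 M0 and microrod libraries (0.0670) and with the 6 libraries compared (0.232). A minimum of 10 counts in every library removed Maf from the test.

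With SiO2 the log2 fold change of Maf was -1.41 (95% CI -2.28 to -0.53, adjusted p = 0.283), and CaP differed from SiO2 by -1.01 (-2.07 to 0.06). In M1 Maf had 0.688, 0.547 and 0.680 CPM, below all M0 libraries, but at 8, 8 and 7 counts its value of -0.90 ± 0.42 (SE) was not called (adjusted p = 0.185). M2 (0.751, 1.45 and 0.973 CPM) overlapped with M0. CaP was also called below M2, by a factor of 4.46 (adjusted p = 0.00694). An antisense gene that shares 440 exonic bases with Maf, Gm15655, had 0 counts in all libraries.

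Counting libraries that did not overlap gives a view that needs no model. Against M0, the groups were separate for 5 members in M1, 4 in M2, 6 with CaP and 5 with SiO2, beside 32.2%, 15.2%, 17.4% and 18.0% of all genes tested. Cebpa, Klf4 and Maf were below M0 in this sense and Spi1 and Klf6 above it with both rod types, and Mitf was above it with CaP. The median log2 fold change of the 9 members was -0.12 in M1, -0.11 in M2, -0.27 with CaP and -0.10 with SiO2, beside medians of -0.01, 0.07, 0.06 and -0.02 over all genes tested.

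The relatives of the members were described with lists of family members. Their calls against M0 stand beside 14.1% of all genes tested in M1, 4.13% in M2, 0.654% with CaP and 0.264% with SiO2. In the C/EBP family, Ddit3, the stress-induced factor CHOP that pairs with other C/EBP proteins, rose from 14.3 CPM in M0 to 77.5 CPM in M1 (log2 fold change 2.45, adjusted p = 4.15e-06) and to 46.6 CPM with CaP (1.72, adjusted p = 0.00112). Cebpe, a factor of granulocyte maturation, rose from 20.9 CPM in M0 to 40.9 CPM in M2 (0.98, adjusted p = 0.00552). Of the 3 listed relatives, 1 was thus called higher in each of M1, M2 and CaP and 0 with SiO2. With SiO2, Ddit3 (27.8 CPM, 0.97, adjusted p = 0.105) and Cebpe (32.0 CPM, 0.62, adjusted p = 0.276) were still above all M0 libraries. Neither gene was called between the 2 rod types in edgeR's test.

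Of the 7 KLF relatives tested, 2 were called against M0, both lower in M1: Klf13 (557 CPM in M0, 307 CPM in M1, adjusted p = 0.0292) and Klf16, named after its value was seen (63.4 and 40.4 CPM, adjusted p = 0.0415). Neither Tfe3 nor Tfeb, the tested relatives of Mitf, was called in any group against M0.

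Of the 19 tested PU.1 relatives and partner factors, 2 were called higher and 4 lower in M1, 1 higher and 2 lower in M2, and 0 with either microrod. Id2, an inhibitor of basic helix-loop-helix factors, fell from 30.8 CPM in M0 to 2.57 CPM in M1 (log2 fold change -3.58, adjusted p = 4.25e-07). In M2, Irf4, a partner of PU.1 that acts downstream of IL-4, rose from 0.391 to 6.90 CPM (3.98, adjusted p = 3.04e-06), and the immediate early factor Egr1 fell from 26.5 to 11.1 CPM (-1.23, adjusted p = 0.0120).

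Genes tied to the members in textbooks were read in 4 lists, by counts and medians. Against M0, 14.1% of all genes tested were called in M1, 4.13% in M2, 0.654% with CaP and 0.264% with SiO2. The medians over all genes tested were -0.01, 0.07, 0.06 and -0.02. Of 12 PU.1-dependent macrophage genes, 2 were higher and 1 lower in M1, 1 higher and 2 lower in M2 and 0 called with either microrod, with medians of 0.18, -0.04, -0.14 and -0.10 in M1, M2, CaP and SiO2. Adgre1, which encodes F4/80, rose from 61.8 CPM to 296 CPM in M1 (adjusted p = 3.70e-04) and 195 CPM in M2 (adjusted p = 0.00908). Csf1r, the receptor for M-CSF, fell to 87.9 CPM in M1 (adjusted p = 0.0438), and Lyz2, lysozyme, fell to 368 CPM in M2 (adjusted p = 3.10e-06).

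Of 12 C/EBP target genes, 9 were called higher in M1 and 0 lower, with a median log2 fold change of 6.29, or 4.43 when the 2 genes at the floor of 3 counts per library in M0 were set to their bound. Csf3, which encodes G-CSF, rose from 0.0656 to 235 CPM (log2 fold change 11.19, adjusted p = 1.53e-09). With at most 5 Csf3 counts in any M0 library, the size of this rise is poorly determined. In M2, 2 were higher and 3 lower: Arg1, arginase 1, rose from 11.0 to 1550 CPM (7.16, adjusted p = 6.91e-09) and Hp, the acute-phase protein haptoglobin, fell from 28.3 to 0.797 CPM (-5.34, adjusted p = 1.21e-08). The microrods gave 0 calls in this list. Cebpe stands in both this list and the family list. Il6, Il1b and Nos2 of this list are M1 markers in the paper, and Arg1 is one of its M2 markers. Their calls restate the polarization and are no readout of C/EBP activity, whose part was not tested.

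Of the 11 tested MiT/TFE target genes, 3 were called higher with CaP and 2 with SiO2 and 0 lower, with medians of 0.99 and 0.92 (0.99 and 0.89 with Ctsk set to its bound) beside 0.06 and -0.02 over all genes. Atp6v0d2, a V-ATPase subunit of osteoclasts and macrophages, rose from 0.776 CPM in M0 to 14.3 CPM with CaP (log2 fold change 4.29, adjusted p = 2.01e-05). It was also called higher with SiO2 (4.47 CPM, 2.61, adjusted p = 0.00545) and in M2 (2.19 CPM, 1.51, adjusted p = 0.0388). In M1 it was at 0.187 CPM and not called. Gpnmb, a glycoprotein of lysosomes and melanosomes, rose from 89.0 CPM to 313 CPM with SiO2 (1.82, adjusted p = 0.0209), and with CaP it was at 290 CPM (1.71, adjusted p = 0.0171). The third call with CaP was Ctsk, cathepsin K, at least 2.56-fold higher against a floor of 3 counts in the smallest M0 library. Mitf was not called in either microrod group. In M2, where Mitf was called lower, 1 of the 11 was higher and 0 lower, and in M1 4 were higher and 1 lower. The lowest adjusted p in M1 was that of Acp5, tartrate-resistant acid phosphatase, at low levels (0.0439 to 2.68 CPM, adjusted p = 1.07e-05), and the largest increase among genes with at least 5 CPM in 1 group was that of Ctsd, cathepsin D (178 to 459 CPM, 1.37, adjusted p = 0.0188). Gpnmb was the gene called lower (44.2 CPM, adjusted p = 0.0334). Acp5 and Ctsk were named after their values were seen.

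Of the 6 tested genes tied to MAF in resident macrophages, 3 were called lower with CaP and 1 with SiO2, with medians of -2.20 and -1.85. C1qb, a chain of complement C1q, fell from 21.5 CPM in M0 to 3.49 CPM with CaP (log2 fold change -2.60, adjusted p = 9.90e-04), to 5.75 CPM with SiO2 (-1.90, adjusted p = 0.0191) and to 9.39 CPM in M1 (-1.18, adjusted p = 0.0161). In M2, 4 of the 6 were higher, led by the mannose receptor gene Mrc1 (1.85 to 27.6 CPM, 3.88, adjusted p = 3.04e-06), while Maf itself was not called there (-0.25, adjusted p = 0.782). In M1, 1 was higher and 2 lower.

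The calls of target genes with microrods depended on single libraries. Over the 4 lists, 6 target genes were called with CaP and 3 with SiO2 against M0. Without M0 replicate 1, M0 replicate 3 or CaP replicate 3 the CaP count was 2, 3 and 3, and without any of M0 replicates 1 to 3 or of SiO2 replicates 1 and 3 the SiO2 count was 1. Among the relatives and partner factors read here, 9 were called in M1 (3 to 5 without M0 replicate 1, M0 replicate 3, M1 replicate 2 or M1 replicate 3), 4 in M2 (8 without M2 replicate 2) and 1 with CaP (2 without CaP replicate 1).

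**Figure D4:**
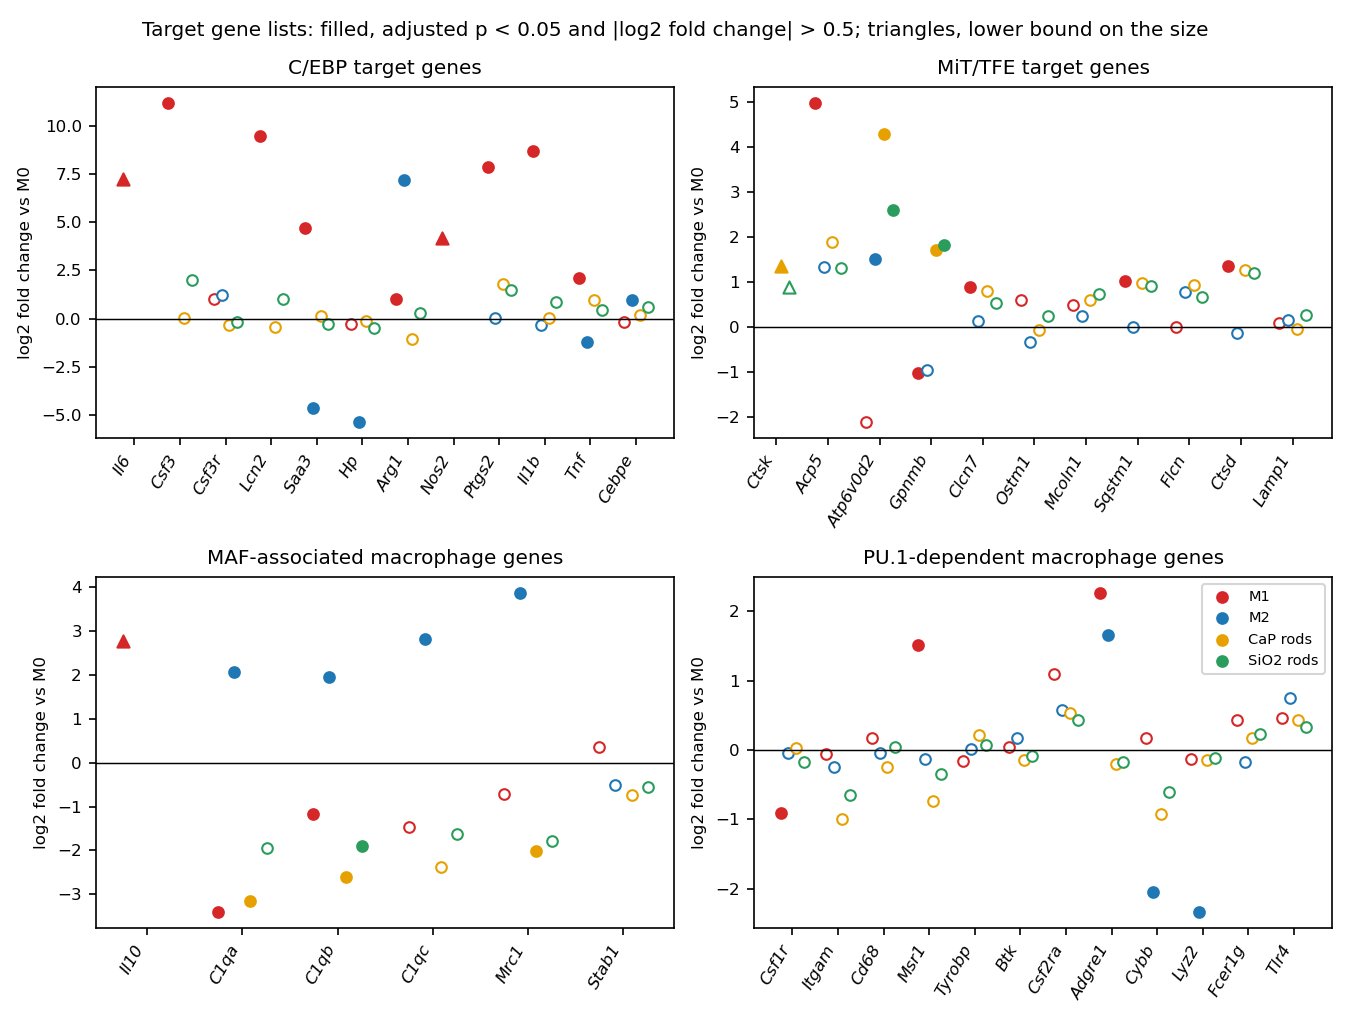
Log2 fold change against M0 (y axis) of the tested genes of 4 lists (x axis) in M1, M2, CaP and SiO2; filled symbols pass both thresholds and triangles give a lower bound where 1 of the groups was at or below 3 counts in all libraries, with genes left out where no bound above 1-fold existed. The C/EBP list is highest in M1 (9 of 12 called). In the MAF list, C1qa, C1qb, C1qc and Mrc1 lie above 0 in M2 and below 0 with CaP, whereas Stab1 lies below 0 in both. Of this list 4 of 6 were called higher in M2 and 3 of 6 lower with CaP.

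For each member called in a main comparison, the genes with the most similar pattern over the 15 libraries were sought among 10339 genes with a mean of at least 5 CPM, by the root mean square difference of centred log2 CPM. These were Stk24 (0.177) and Gps2 (0.193) for Cebpa, Arl4c (0.309) and Dapp1 (0.369) for Klf4, Fbxo15 (0.184) and Camk2d (0.210) for Mitf, and Ift172 (0.270) and Hnrnpul2 (0.274) for Klf2. Cebpd was nearest to an unnamed gene, ENSMUSG00000130345 (0.189), and to Vmn2r63 (0.249), and for Maf Notch2 (0.513) is given. The members' own spread about their mean, on the same scale, was 0.421 for Cebpa, 0.866 for Klf4, 0.570 for Mitf, 0.528 for Klf2, 0.776 for Cebpd and 0.845 for Maf.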

How the data were processed

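RNA of MH-S cells was measured in 15 Smart-seq2 libraries, 5 groups of 3 wells. Per the submitters' notes and the paper's methods, the authors sequenced paired-end reads without molecular identifiers and processed them with nf-core/rnaseq using STAR and Salmon on GRCm39 with the Ensembl annotation. The deposited values are raw counts for each Ensembl gene identifier. They are whole numbers, and since Salmon gives estimates, they may have been rounded. All columns were matched to a sample by name (0 left unused). Symbols came from a mouse annotation of another build (GRCm38), which named 51487 of 78317 identifiers and gave exon lengths and overlaps. Promoters are RefSeq's.

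The counts were tested with edgeR 4.0.16 under R 4.3.3 (filterByExpr by group, TMM, quasi-likelihood test, 1 model of all 15 libraries, 16654 genes tested, Benjamini-Hochberg adjustment). The thresholds are those of the paper. CPM are counts relative to the TMM-scaled library total. The floor is 3 counts per library, between 0.0429 and 0.395 CPM, which covers counting error only. Log2 CPM used a prior count of 2. Alternatives were DESeq2 1.42.0, its size factors, 2 other filters, a replicate block, other libraries in the model and each library left out, and, after seeing the data, the legacy quasi-likelihood and leaving out 3 libraries together. Each was run on all tested genes.

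Named genes are all members, in each list the called gene with the largest change in each direction against M0 at 5 CPM or more in 1 group, and the 2 nearest genes of each called member. Klf16, Acp5 and Ctsk fall outside this rule and were named after their values were seen. Members and lists were chosen with earlier results of these data known. One gene that falls under this rule is not reported here and was left out of the lists.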

Additional observations from a re-analysis of the deposited data

How the results depend on the processing

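Over the 6 main comparisons and the 9 members, 728 of 776 recomputed log2 fold changes kept both their direction and their side of the threshold, 20 lost the call, 6 gained it and 22 changed sign. The M1 against M0 count of 3 members, and the counts of 0 for SiO2 against M0 and CaP against SiO2, were the same in all alternatives. For M2 against M0 (1 member) the count was 2 without a filter, 2 with DESeq2, 0 with the 6 libraries compared and 0 to 1 when single libraries were left out. For CaP against M0 (1 member) it was 0 under a minimum of 10 counts per library (which leaves Maf untested), 0 with the legacy quasi-likelihood, 0 with the 9 M0 and microrod libraries, 0 with the 6 libraries compared, 2 with DESeq2 and 0 to 2 when single libraries were left out. For M1 against M2 (4 members) it was 2 to 4 when single libraries were left out. In this comparison Klf2 also lost its call without a filter (adjusted p = 0.0600 in edgeR's test). Mitf lost it with only the 6 libraries compared (0.138). The cause of these shifts was not tested.

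No member with a sign change was called in the comparison concerned. Cebpb in M2 against M0 (0.02) became -0.01 under the filter of 10 counts per library, -0.07 with the replicate block, -0.04 with the legacy quasi-likelihood, -0.01 with the 6 libraries compared and -0.01 with DESeq2. Without the 3 libraries that stood apart, Cebpb with CaP against M0 (0.11) became -0.01, and with SiO2 (-0.04) it became 0.02 with the legacy quasi-likelihood and 0.01 with DESeq2. When single libraries were left out, the log2 fold changes that changed sign ranged from -0.87 to 0.58 for Cebpb in M2 against M0, -0.34 to 0.08 for Cebpd in M2 against M0, -0.39 to 0.17 for Maf in M2 against M0, -0.12 to 0.66 for Cebpb in CaP against M0, -0.27 to 0.53 for Cebpb in SiO2 against M0, -0.34 to 0.09 for Cebpd in SiO2 against M0, -0.22 to 0.07 for Spi1 in CaP against SiO2, -0.02 to 0.07 for Klf6 in CaP against SiO2 and -0.73 to 0.04 for Spi1 in M1 against M2.

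The replicate numbers of the labels were not taken as pairs. Deviations from the group means of the 30 pairs of same-numbered libraries correlated between -0.70 and 0.60, 14 of the 30 above 0.1, and 8 of 15 libraries correlated best with their own number. With the number as a replicate block, the counts of members called were 3, 1, 1, 0, 0 and 4 in M1, M2, CaP and SiO2 against M0, CaP against SiO2 and M1 against M2, as without it. Over all genes the block lowered the calls from 109 to 59 with CaP and from 44 to 19 with SiO2 against M0, and from 687 to 504 in M2.

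Depth limits Maf most, with 3 to 68 counts per library, and also Klf2 (12 to 203), Cebpd (20 to 187) and Cebpb (14 to 339), while Spi1 and Klf6 had at least 789 counts in every library. The counts for relatives and target genes moved as well: targets called with CaP against M0 numbered 6, with 1 to 14 over the alternatives, and with SiO2 3, with 0 to 8.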
